A study of Arabidopsis thaliana with 6 samples.

Results

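Plastids keep a small genome of their own, and 26 probe sets of the Arabidopsis ATH1 array each measured 1 plastid-encoded gene outside the photosynthetic complexes. They were chosen from the gene table as plastid genes whose names do not begin with psa, psb, pet, atp, ndh or rbcL, out of 69 probe sets with 1 plastid-encoded gene and 22746 probe sets in all. The 26 comprise 4 RNA polymerase genes (rpo), 7 genes for proteins of the large ribosomal subunit (rpl), 8 for proteins of the small ribosomal subunit (rps), and 7 others (accD, ccsA, cemA, clpP, matK, ycf3 and ycf4). A further 7 probe sets of such plastid genes are listed for a pair of gene copies and are not members.

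Pollinated flowers at stages 14 to 15 were profiled, 3 arrays from plants homozygous for pop2-1 and 3 from wild-type plants, all of the Ler accession. POP2 is the transaminase that degrades γ-aminobutyric acid (GABA), and the study set flowers with much GABA against wild-type flowers. One mutant allele was examined, and the number of plants behind each array was not given in the sources used here. Values are MAS5 signals, which are linear hybridisation intensities, 1 per probe set and array. Signals of different probe sets depend on their probes, so each gene is compared only with itself across arrays.

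The plastid genome is read by 2 kinds of RNA polymerase. One is a bacterial-type enzyme whose core subunits are plastid-encoded, while its sigma factors are nuclear-encoded, and the other is a phage-type enzyme made wholly from nuclear genes. The rpoB operon and accD are read by the phage-type enzyme, and the bacterial-type enzyme transcribes most photosynthesis genes in green tissue. Many plastid genes are read together in long transcripts that are later cut, spliced, edited and translated on the plastid's own ribosomes, whose proteins come from both genomes. Most plastid transcripts lack stable long poly(A) tails. The labels do not name the primer used for cDNA synthesis, and its part in these signals was not tested.

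All 24 members bright enough to test had a positive log2 difference between pop2-1 and wild-type flowers, with the smallest, matK at 0.05, turning to -0.01 when arrays were scaled to equal medians. The members' median was 0.44 on the log2(signal + 16) scale, against 0.03 over all 13647 probe sets tested, and the members ranged from 0.05 to 0.76. A positive difference was found for 55.4% of all tested probe sets. In limma 0 of 24 passed an adjusted p under 0.05, with adjusted p from 0.171 to 0.849, where 0.147% of all probe sets passed as higher and 0.315% as lower. At an unadjusted p under 0.05 there were 14 members, all higher in pop2-1, against 6.45% of all probe sets. The members share arrays, and several share a transcript, so these counts are not independent observations.

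Arrays were paired by replicate number, a pairing taken from correlations in these same data, as no label states what the numbers share. With that number as a block in limma 5 of 24 members passed as higher in pop2-1, where 0.799% of all probe sets did. The 5 were ccsA, rpoA, rpoC2, rps15 and rpl14. By contrast 0 passed as lower, where 1.1% of all probe sets did. At an unadjusted p under 0.05 with the block, 18 of 24 were higher, where 9.13% of all probe sets were. With pair 2 left out, an alternative added after the data were seen, 0 of 24 passed, where 0.0513% of all probe sets passed in either direction, and the members' median stood at 0.52. With pair 1 left out 8 passed, where 11.2% of all probe sets did. With pair 3 left out 3 passed, where 0.916% did. Within pairs, 21 of the 24 were higher in pop2-1 in all 3, against 22.2% of the tested probe sets. The median difference was 0.63 in pair 1, 0.29 in pair 2 and 0.37 in pair 3.

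**Figure D1:**
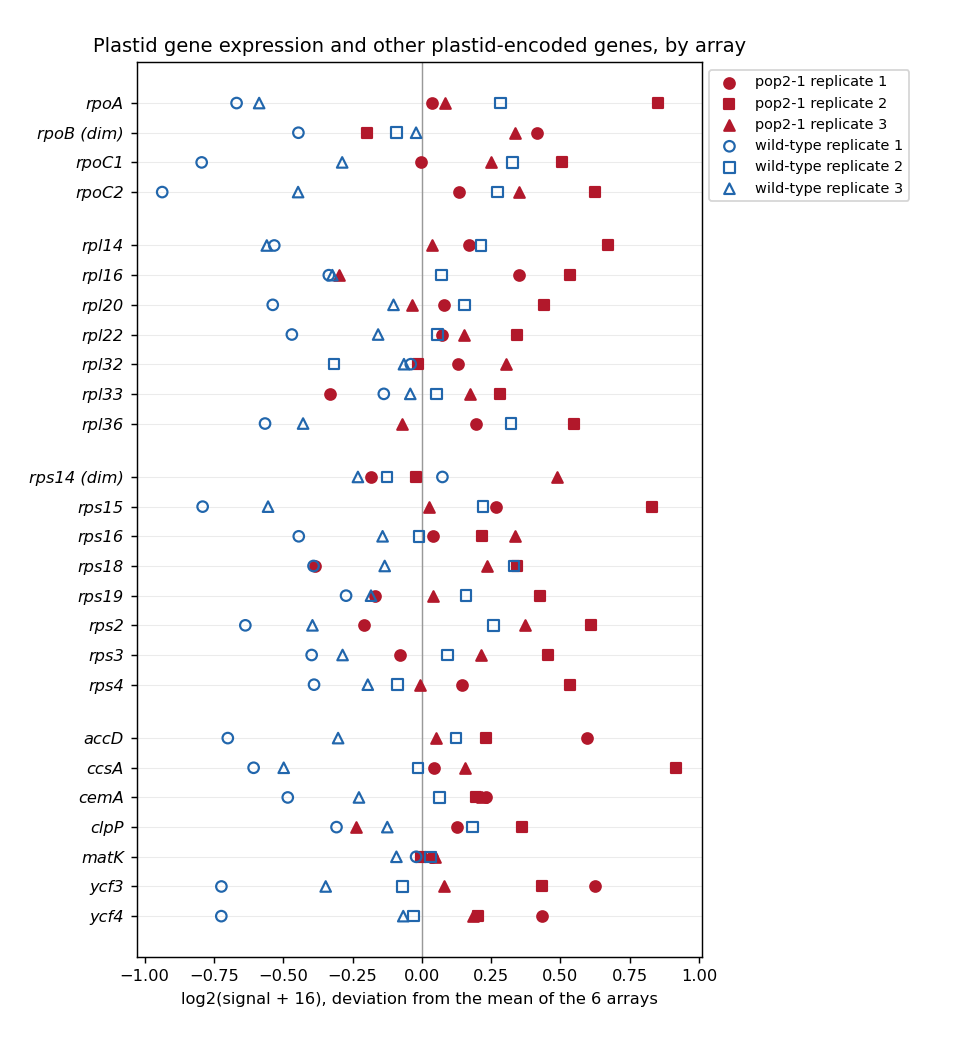
Deviation of log2(signal + 16) from the mean of the 6 arrays (x axis, log2) for each of the 26 members (y axis, by class), with filled red symbols for pop2-1 arrays, open blue symbols for wild-type arrays and the symbol shape for the replicate number. Wild-type replicate 1 is the lowest array for 21 members and pop2-1 replicate 2 the highest for 17, and rpoB and rps14 were too dim to test.

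The arrays of a group stood far apart. Wild-type replicate 1 was the lowest of the 6 arrays for 21 of 26 members, against 17.6% of all tested probe sets. Pop2-1 replicate 2 was the highest for 17 of 26, against 34.1%. The median deviation of the 24 tested members from their 6-array mean was 0.10, 0.44 and 0.12 on pop2-1 replicates 1, 2 and 3, and -0.51, 0.11 and -0.26 on wild-type replicates 1, 2 and 3. Wild-type replicate 2 therefore lay within the range of the pop2-1 arrays. In 8 members, rpl22, rpl32, rps4, rps16, ccsA, cemA, ycf3 and ycf4, the lowest mutant signal was above the highest wild-type one, against 9.88% of probe sets tested. The opposite order was found in 0 members, against 8.06%.

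These same 2 arrays also stood apart in control probe sets. The ratio of actin signals from the 3' and 5' probe sets was 9.73 on pop2-1 replicate 2, against 1.81 and 2.7 on the other pop2-1 arrays and 1.72 to 2.93 on the wild-type arrays. The 25S rRNA control was at 459.7 to 997 on the pop2-1 arrays, against 3505 on wild-type replicate 1 and 822 and 1049.7 on the other wild-type arrays. With the actin ratio as a covariate in limma the members' median difference was 0.32, and 13 of the 24 had a difference more than 1.5 times smaller, among them rpoA at 0.34 and rps19 at 0.01. Without pop2-1 replicate 2 the median was 0.35 and 11 of 24 were that much smaller, with rpoA at 0.38, rpl16 at 0.22 and rps19 at 0.03. Without wild-type replicate 1 the median was 0.31 and 12 of 24 were that much smaller, with rpoC1 at 0.23. The part of the rRNA signal in the members' values was not tested. Flowers were measured whole, so more plastid RNA per cell and more cells rich in plastids cannot be told apart.

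The RNA polymerase genes had the highest median difference of the 4 classes, 0.65 over 3 tested genes, but this order did not hold in every setting. Without pop2-1 replicate 2 it was 0.38, below the 0.47 of the class of other genes, and with the actin ratio as covariate it was 0.34, below their 0.46. The signal of rpoA, the alpha subunit, was 674, 1199 and 698 in pop2-1 flowers, against 408, 804 and 432 in wild-type flowers (log2 0.65 ± 0.28 SE, limma adjusted p = 0.415, 0.0297 with the replicate block). Pop2-1 replicate 2 was the highest array and wild-type replicate 2, at 804, exceeded the other pop2-1 arrays, so the groups overlapped. Within each pair the mutant array was higher, by 0.70, 0.57 and 0.67 on the log2 scale.

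For rpoC2, which encodes the beta'' subunit, signals were 971, 1372 and 1132 in pop2-1 flowers, against 454, 1072 and 644 in wild-type flowers (log2 0.74 ± 0.27 SE, limma adjusted p = 0.328, 0.0426 with the block). The beta' subunit gene rpoC1 had signals of 1586, 2265 and 1891 in pop2-1 flowers, against 909, 1996 and 1299 in wild-type flowers (log2 0.50 ± 0.25 SE, limma adjusted p = 0.467, 0.0933 with the block). In both genes the groups overlapped through wild-type replicate 2, and each pair had the mutant array higher. The beta subunit gene rpoB was too dim to test, at 163, 101 and 154 in pop2-1 flowers and 82.7, 110.2 and 116 in wild-type flowers. It was lower in the mutant in pair 2 (log2 -0.11), unlike the other 3 subunit genes.

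The neighbours rpoB, rpoC1, rpoC2 and rps2 form 1 run of adjacent genes on the plastid genome and are known to be transcribed together. Their 3 tested members had differences of 0.50 to 0.74. The last gene of the run, rps2 for a small-subunit protein, had signals of 1823, 3231 and 2732 in pop2-1 flowers, against 1351, 2525 and 1600.5 in wild-type flowers (log2 0.52 ± 0.25 SE, limma adjusted p = 0.46, 0.0594 with the block). Wild-type replicate 2 again lay above pop2-1 replicate 1.

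The 7 genes of the large ribosomal subunit, all bright enough to test, had a median difference of 0.38 and a range of 0.08 to 0.59. The highest was rpl14, a core protein of the large subunit, with 559, 799 and 509 in pop2-1 flowers, against 338, 577 and 331 in wild-type flowers (log2 0.59 ± 0.24 SE, limma adjusted p = 0.379, 0.0483 with the block). The groups overlapped through wild-type replicate 2. Signals of rpl22 were 2571, 3099.8 and 2716 in pop2-1 flowers, against 1759, 2541 and 2187 in wild-type flowers (log2 0.38 ± 0.14 SE, limma adjusted p = 0.35, 0.0992 with the block). The groups did not overlap, by a margin of 2571 to 2541. The ends of rpl22 and rps3 overlap on the genome, so a transcript of one can carry part of the other.

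The gene rpl32 encodes another protein of the large subunit. Its signals were 2299, 2078 and 2592 in pop2-1 flowers, against 2041, 1682 and 2006 in wild-type flowers (log2 0.28 ± 0.12 SE, limma adjusted p = 0.419, 0.199 with the block). Wild-type replicate 2 was the lowest array for this member alone among the 26, and the groups did not overlap. It was the 1 member that passed with array weights (log2 0.39, limma adjusted p = 0.0437), where 3.5% of all probe sets passed as higher.

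The other large-subunit genes were rpl36 (0.45), rpl16 (0.39), rpl20 (0.32) and rpl33 (0.08), with limma adjusted p of 0.496 to 0.849. The difference of rpl33 was -0.19 in pair 1, and over all arrays it turned to -0.04 without pop2-1 replicate 2.

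The small ribosomal subunit had a median difference of 0.40 over 7 tested genes, with a range of 0.13 to 0.75. The highest was rps15, with signals of 514, 768 and 432 in pop2-1 flowers, against 239, 498 and 284 in wild-type flowers (log2 0.75 ± 0.28 SE, limma adjusted p = 0.342, 0.036 with the block). Pair differences were 1.06, 0.61 and 0.58, and the groups overlapped through wild-type replicate 2. The brightest member, rps4, whose protein helps to start assembly of the small subunit in bacteria, had 11541, 15120.0 and 10379 in pop2-1 flowers, against 7967, 9824 and 9116 in wild-type flowers (log2 0.45 ± 0.14 SE, limma adjusted p = 0.261, 0.0555 with the block). All pop2-1 arrays lay above all wild-type arrays.

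The intron-containing gene rps16 had signals of 295, 336 and 366 in pop2-1 flowers, against 206, 284 and 258 in wild-type flowers (log2 0.40 ± 0.16 SE, limma adjusted p = 0.38, 0.195 with the block). Again the groups did not overlap, by 295 to 284. Differences were 0.39 for rps3, 0.20 for rps19 and 0.13 for rps18, with limma adjusted p of 0.394 to 0.842. The dim rps14 probe set was not tested and had 81.9, 93.5 and 140.0 in pop2-1 flowers, against 101, 86 and 78.8 in wild-type flowers. In pair 1 it was lower in the mutant (log2 -0.26).

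The longest run of neighbours extends from rps19 through rpl22, rps3, rpl16, rpl14 and rpl36 to rpoA. It resembles the ribosomal protein operons of bacteria. Its 7 members had differences of 0.20 to 0.65 with a median of 0.39, and all 7 were higher in pop2-1 in each pair. The neighbours rpl33 and rps18, by comparison, stood at 0.08 and 0.13, near the 0.03 of all probe sets. The gene next to rps18 by locus number, rpl20, was not counted in that run and stood at 0.32. This contrast between runs of genes was not tested.

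**Figure D2:**
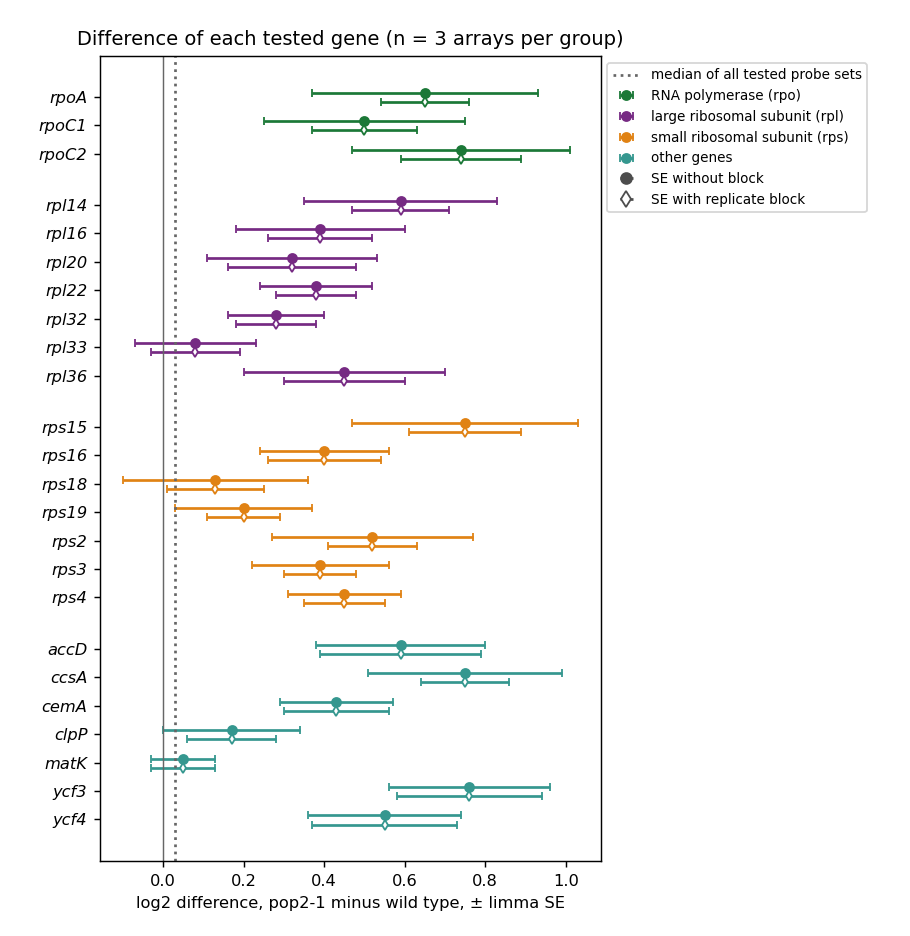
Log2 difference, pop2-1 minus wild type (x axis), of the 24 tested members (y axis, coloured by class), with limma's SE from the fit without a block (circles) and with the replicate number as a block (diamonds). All points lie right of 0, between 0.05 for matK and 0.76 for ycf3, and the dotted line marks the median of all tested probe sets at 0.03.

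The remaining 7 genes act outside transcription and translation, apart from matK, and had a median difference of 0.55. Without wild-type replicate 1 it was 0.32. The member with the largest difference and smallest p was ycf3, which encodes a chaperone for the assembly of photosystem I. Its signals were 651, 567 and 441 in pop2-1 flowers, against 246, 396 and 324 in wild-type flowers (log2 0.76 ± 0.20 SE, limma adjusted p = 0.171, 0.0773 with the block). All pop2-1 arrays exceeded all wild-type arrays. The pairs differed widely, at 1.35, 0.50 and 0.43.

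The haem attachment gene ccsA, needed to make c-type cytochromes, had signals of 1668, 3069 and 1802 in pop2-1 flowers, against 1056, 1601 and 1139.5 in wild-type flowers (log2 0.75 ± 0.24 SE, limma adjusted p = 0.261, 0.0154 with the block). The groups did not overlap, and the pairs differed by 0.65, 0.93 and 0.65. It had the smallest p with the block among the members. In cemA, an envelope membrane protein gene, the pop2-1 arrays were close together, at 1616, 1574 and 1601, against 977, 1436 and 1171 in wild-type flowers (log2 0.43 ± 0.14 SE, limma adjusted p = 0.283, 0.137 with the block). The spread of cemA came from the wild-type arrays, with an SD of 21 in pop2-1 flowers and 230.4 in wild-type flowers (n = 3 each).

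The genes accD, ycf4 and cemA lie in 1 run with psaI between them. Differences were 0.59 ± 0.21 SE for accD, which encodes a subunit of the acetyl-CoA carboxylase of fatty acid synthesis, and 0.55 ± 0.19 SE for ycf4, another photosystem I assembly factor (limma adjusted p = 0.33 and 0.299). All 3 genes, and ycf3, were highest on pop2-1 replicate 1, where 15.6% of all tested probe sets were highest. Of the 19 polymerase and ribosomal protein genes, 15 were highest on pop2-1 replicate 2, where 34.1% of all tested probe sets were. This contrast was not tested. Pair 1 gave accD a difference of 1.30 and ycf4 one of 1.16, and pair 2 gave them 0.11 and 0.23.

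Smaller differences were found for clpP, the catalytic subunit of the Clp protease (0.17 ± 0.17 SE, limma adjusted p = 0.715), and matK, which encodes a maturase for intron splicing (0.05 ± 0.08 SE, limma adjusted p = 0.82). The signals of matK were 5899, 5745 and 5946 in pop2-1 flowers and 5672, 5880.3 and 5399 in wild-type flowers. The groups overlapped, and wild-type replicate 3, not replicate 1, was the lowest array.

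The plastid-encoded photosynthesis genes, which the bacterial-type polymerase mostly transcribes, had a median difference of 0.35 over 41 tested genes, 40 of them positive and 0 passing limma. With the replicate block 5 of the 24 members passed, against 1 of 41 photosynthesis genes, psbJ (limma adjusted p = 0.045). Of all tested probe sets 0.799% passed as higher with the block. At an unadjusted p under 0.05 there were 14 of 24 members, or 18 with the block. The photosynthesis genes had 7 of 41, or 18 with the block. Of all tested probe sets 6.45% were higher at that level, or 9.13% with the block. Without pop2-1 replicate 2 the median was 0.35 for the members and 0.34 for the photosynthesis genes, and with the actin covariate it was 0.32 for the members and 0.33 for the photosynthesis genes. Without wild-type replicate 1 it was 0.31 for the members and 0.19 for the photosynthesis genes. Members higher in pop2-1 numbered 23 of 24 in each pair, and photosynthesis genes 39, 22 and 38 of 41 in pairs 1, 2 and 3. Of all 13647 tested probe sets, 6951, 7541 and 7343 were higher in those pairs. In pair 1 the median was 0.63 for the members and 0.73 for the photosynthesis genes, and in pair 2 it was 0.29 for the members and 0.08 for the photosynthesis genes. On pop2-1 replicate 2 the median deviation was 0.44 for the members and 0.11 for the photosynthesis genes, and on wild-type replicate 1 it was -0.51 for the members and -0.49 for the photosynthesis genes. The photosynthesis genes with the smallest p were psbF (0.50), psbJ (0.64), atpH (0.73) and psbE (0.38), with limma adjusted p of 0.165 to 0.316. Whether the lists differ was not tested.

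The mitochondrion-encoded genes, of which 8 of 22 probe sets were bright enough to test, had median deviations of 0.15, 0.50 and 0.12 on the pop2-1 arrays and -0.48, 0.06 and -0.42 on the wild-type arrays. Their median difference was 0.55, and 0 passed limma. Over all 22, unfiltered, the median was 0.35, and with the stricter filter at the 60th percentile it was 0.68. Besides cox1, those with the smallest p were 1 of the probe sets of nad1 (0.90), ccb382 (0.68) and nad9 (0.45), with limma adjusted p of 0.165 to 0.378. The filter of 130 applied to the mean of all 6 arrays. This nad1 probe set and nad9 passed it only through the pop2-1 arrays. Their means were 211 and 179 in pop2-1 flowers, against 103 and 128 in wild-type flowers. Another tested probe set of nad1 stood at 0.29 (limma adjusted p = 0.58). The respiratory gene cox1 had signals of 1269, 1215 and 895 in pop2-1 flowers, against 598, 769 and 534 in wild-type flowers (log2 0.81 ± 0.18 SE, limma adjusted p = 0.1, 0.0182 with the block). All mutant signals of cox1 lay above the wild-type ones.

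**Figure D3:**
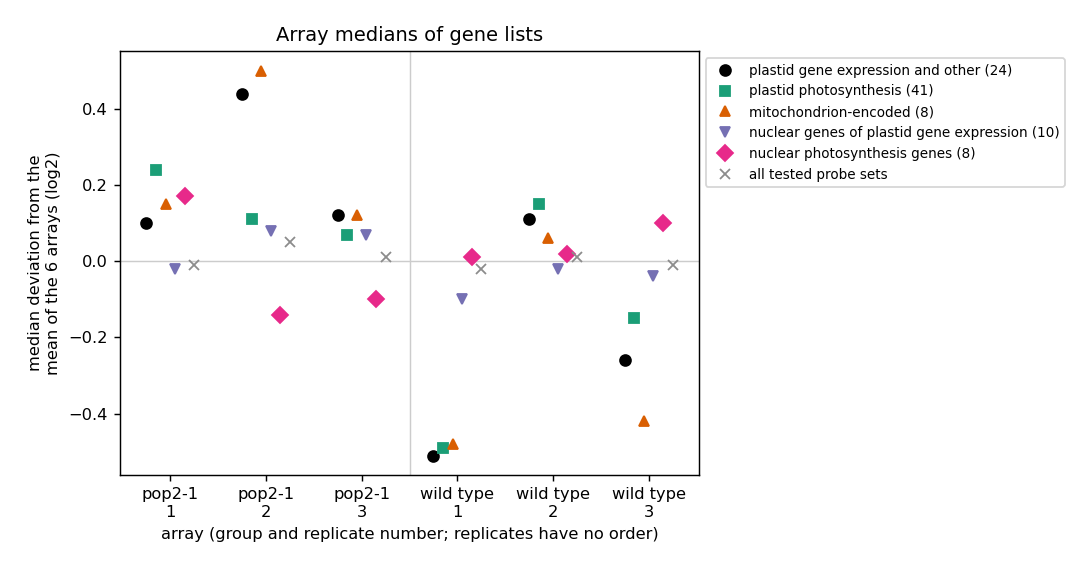
Median deviation of log2(signal + 16) from the mean of the 6 arrays (y axis) on each array (x axis) for the members, 4 other gene lists and all tested probe sets. The organelle-encoded lists are lowest on wild-type replicate 1 (-0.48 to -0.51), while nuclear photosynthesis genes stand at 0.01 and all probe sets at -0.02 there.

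Nuclear genes that serve the plastid could be followed only in part. Of 122 nuclear genes identified for plastid gene expression and for partners of the other members, 16 were named on the array and 10 were tested, with no sigma factor, nuclear polymerase or ribosomal protein among the 16. In limma 0 of 10 passed, 2 had an unadjusted p under 0.05 against 11.9% of all probe sets in either direction, and the median difference was 0.09, or -0.02 with a filter at the 60th percentile. The editing factor gene LPA66 stood at 0.43 ± 0.15 SE, the plastid translation initiation factor gene FUG1 at 0.27 ± 0.11, the RNA helicase gene RH39 at -0.27 ± 0.18 and the editing factor gene OTP84 at 0.24 ± 0.22 (limma adjusted p = 0.301, 0.394, 0.56 and 0.68). OTP84 passed the filter of 130 through its pop2-1 mean of 148, with 121 in wild-type flowers.

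Nuclear photosynthesis genes, taken as markers of green tissue, had a median difference of -0.07 over 8 genes, 2 positive and 0 passing limma. Their summed signal was 54463, 41124 and 46322 in pop2-1 flowers, against 47393, 48163 and 51666 in wild-type flowers. On pop2-1 replicate 2, where the members were highest, that sum was the lowest of the 6. The summed signal of 7 genes taken as pollen markers was 1477, 2173 and 2014 in pop2-1 flowers, against 1489, 1700.4 and 1565 in wild-type flowers, highest on pop2-1 replicate 2 as the members were. Of the 7, 4 were bright enough to test, with MGH3 at 0.53, ANX2 at 0.49 and ACT12 at 0.43. The brightest of the 4, AT3G63460, went the other way (log2 -0.10, limma adjusted p = 0.769). At 592, pop2-1 replicate 2 was its lowest array. Its signals, 637, 592 and 722 in pop2-1 flowers and 674, 728 and 683 in wild-type flowers, made up a large part of the sums. Whether it marks pollen alone was not tested. The 4 ovule and young seed markers included BAN, which fell in pop2-1 flowers (log2 -2.45, limma adjusted p = 0.0111). Their summed signal was 408, 330.3 and 447 in pop2-1 flowers, against 458, 771 and 812 in wild-type flowers. Without BAN the sum of the other 3 was 354, 287 and 376 in pop2-1 flowers, against 229, 277 and 354 in wild-type flowers, so the lower sum rested on BAN. Most of the sum without BAN was INO (log2 0.31, limma adjusted p = 0.567). Its signals were 317, 269 and 355 in pop2-1 flowers, against 193, 241 and 330.2 in wild-type flowers. The remaining 2 markers were too dim to test. Detection calls were not used, so the sums do not show whether a tissue was present. The part of tissue make-up in the members' signals was not tested.

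**Figure D4:**
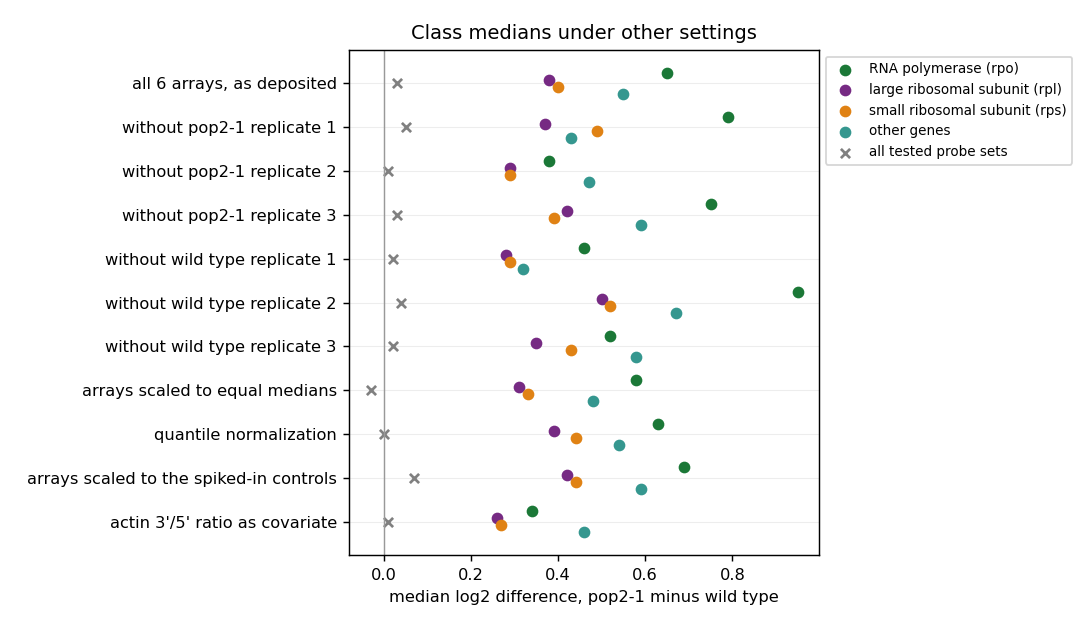
Median log2 difference, pop2-1 minus wild type (x axis), of the 4 classes of members and of all tested probe sets under the settings on the y axis. Class medians stay between 0.26 and 0.95 in the settings drawn, while in settings not drawn the large-subunit genes stood at 0.25 with array weights and the other genes at 0.24 under the block with pair 1 left out. The medians of all probe sets lie between -0.03 and 0.07 in those drawn.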

How the data were processed

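Per the submitters' processing notes, the deposited values are MAS5 signals, linear intensities with 1 value per probe set and array. The software version was not stated. Each array of deposited intensity values has a trimmed mean of 500.04, and every difference is therefore relative to that common mean. Group and replicate number came from sample titles. Free-text fields of the wild-type arrays carry the text of the mutant ones and were not used to assign the groups. Probe sets were named from the platform annotation through the Entrez number to the TAIR10.1 gene table, which held 13436 of 13513 probe sets with 1 gene; 503 had several and 8730 none. Mitochondrial genes, absent from that table under the locus tags planned, were taken by platform symbol. The POP2 transcript was not analysed here.

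Signals plus a pseudocount of 16 were log2-transformed. Only probe sets with a mean signal above 130, the 40th percentile, were tested, 13647 of 22746. That mean was taken over all 6 arrays, so a probe set could pass through the group where it was brighter. The comparison used lmFit and eBayes with trend from limma 3.58.1 (R 4.3.3), 2-sided, with Benjamini-Hochberg adjustment over all tested probe sets. A fold on this scale understates change in dim probe sets. The fit without a block was also run on simulated data with independent noise. That simulation held no pairs and no effect shared by the genes of an array, so it cannot speak to either. After subtracting group means, arrays of the same number correlated at 0.208, 0.418 and 0.172. The numbers were taken as pairs on that ground, and no label states what they share. Pair 2, at 0.418, joined the array with the highest actin ratio in each group, 9.73 in pop2-1 and 2.93 in wild type. The part of RNA quality in these correlations was not tested. P-values measure the spread between these arrays, whose number limits precision. Alternatives were pseudocount, filter, scaling, block, array weights, RNA quality covariate, threshold and leaving out arrays. Members, lists and alternatives were chosen with earlier results of these data known. Named genes were the 3 members with the smallest p per class, the brightest and dimmest member, and 4 per other list. The runs of neighbouring genes and the split of highest arrays by class were chosen after values were seen. So were the per-array values of rps2, rpoB and matK, the marker sum without BAN, and the values of INO and AT3G63460.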

Additional observations from a re-analysis of the deposited data

How the results depend on the processing

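The count of members passing as higher, 0, was 5 with the replicate block and 1 with array weights. With the block it was 8, 0 and 3 with pair 1, 2 or 3 left out, alternatives chosen after seeing the data. It was 0 without each single array, and 0 members passed as lower in any setting run. The median of the 7 other genes, 0.55, was 0.24 under the block with pair 1 left out. The median over members, 0.44, ran from 0.31 to 0.55 without single arrays. Over all probe sets, calls numbered 63, and 41 with a filter at the 60th percentile, 32 with arrays scaled to the spiked-in controls, 259 with the block, 972 with array weights, 157 with the actin ratio as covariate and 152 at an adjusted p under 0.10. They ran from 5 to 527 without single arrays, and were 1523, 7 and 125 under the block with pair 1, 2 or 3 left out. The sign turned for rpl33 (-0.06 with the covariate, -0.04 to 0.27 without single arrays, lowest without pop2-1 replicate 2, and -0.19 in pair 1), rps18 (-0.07 with the covariate, -0.03 to 0.35 without single arrays, with -0.03 without wild-type replicate 1 and -0.01 without pop2-1 replicate 2), clpP (-0.06 with array weights, -0.11 in pair 3) and matK (-0.01 at equal medians, -0.03 in pair 2). Beyond the fewer arrays or genes in some settings, the cause was not tested. Of 405 planned comparisons of a member with an alternative, 7 turned sign and 6 newly passed. The looser threshold, the block and the filter settings leave a member's difference unchanged, so no sign could turn in those comparisons. Detection calls were not used here, so dim signals are not known to lie above background.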
